A study of Mus musculus with 16 samples.

Results

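The 10 Kruppel-like factor genes *Klf2*, *Klf3*, *Klf4*, *Klf5*, *Klf6*, *Klf7*, *Klf9*, *Klf10*, *Klf13* and *Klf15* were followed in mouse quadriceps, chosen by gene name from the 24327 genes that stood in both deposited expression tables. RNA was sequenced from HDAC3 knockout (KO) and wild-type (WT) male C57BL/6 mice aged 4 months, after treadmill running or at rest. Runners completed 3 bouts of 1 h at 10 m/min, spaced by pauses of 1 h, and muscle was collected 2 h after the last bout. The 4 groups were KO after running, WT after running, KO at rest and WT at rest, with 3 libraries each. The labels did not give the promoter or Cre line used to delete *Hdac3*, nor did they say whether libraries came from separate animals, so every p-value below measures only the spread between libraries, which may be technical. Values were FPKM, fragment numbers scaled by transcript length and library size, which allow genes to be compared per length.

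Kruppel-like factors are transcription factors that bind GC-rich and CACCC-containing promoter elements through zinc fingers at the carboxyl end of the protein. KLF15 and KLF9 are induced by glucocorticoids, and KLF15 promotes amino acid breakdown and fatty acid use in skeletal muscle. KLF10 was first described as an early gene of transforming growth factor beta (TGF-beta) signalling, KLF3 represses through the corepressor CtBP, and KLF9, KLF10 and KLF13 can recruit the SIN3A corepressor. HDAC3, the deleted enzyme, is the histone deacetylase of the NCoR and SMRT corepressor complexes.

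*Hdac3* had 5.32, 6.37 and 4.13 FPKM in KO libraries 1 to 3 after running, against 31.0, 32.0 and 27.6 FPKM in WT. At rest it had 5.51, 6.29 and 8.16 FPKM in KO and 33.3, 31.0 and 23.7 FPKM in WT. The transcript was thus lower in every KO library, with limma differences of -2.33 ± 0.16 (SE) after running (adjusted p = 0.00111) and -1.99 ± 0.17 at rest (adjusted p = 0.00487). Summed FPKM lay between 454359 and 522584 per library, and 10123 to 10544 genes reached 1 FPKM. All 10 listed markers of skeletal muscle fibres were found, with summed levels of 53390 to 64540 FPKM in KO after running, 57780 to 71680 in WT after running, 53290 to 65470 in KO at rest and 53120 to 62920 in WT at rest. Among them *Des*, encoding the intermediate filament desmin, rose in KO both after running (0.75, adjusted p = 0.0379) and at rest (0.96, adjusted p = 0.0271). Both *Des* calls were lost when single libraries were left out, with adjusted p up to 0.0982 after running (all 6 libraries) and up to 0.118 at rest (5 of the 6). Read depth was unknown, so no counting error is given.

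*Klf9* was by far the most abundant of the 10 transcripts, and *Klf15*, *Klf6* and *Klf10* followed it in each group. Averaged over the 12 libraries, 3 members had 10 FPKM or more (*Klf9*, *Klf15* and *Klf6*), 6 lay between 1 and 10 FPKM, and 1 lay under 1 FPKM (*Klf5*). No member was at 0 in any library. The summed level of the 10 genes was 129.0 ± 8.44 FPKM in KO after running, 132.7 ± 16.1 in WT after running, 112.2 ± 18.8 in KO at rest and 95.3 ± 8.14 in WT at rest (SD, n = 3). *Klf9* alone made up 46.8% to 50.1% of that sum in KO after running, 43.5% to 53.9% in WT after running, 48.6% to 55.2% in KO at rest and 48.8% to 55.4% in WT at rest. Together *Klf9*, *Klf15*, *Klf6* and *Klf10* held 86.7% to 87.3%, 84.2% to 87.3%, 84.1% to 87.9% and 80.5% to 83.5% in the same 4 groups.

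The order of mean levels placed *Klf15* above *Klf6* in both KO groups and *Klf6* above *Klf15* in both WT groups. In KO after running the libraries of this pair were separate, with *Klf15* above *Klf6* in all 3. In WT after running, in KO at rest and in WT at rest the libraries of the pair overlapped, so their order there did not exceed the spread. *Klf9* stood clear of the next gene in every group. *Klf13* came next after *Klf10* in every group, and its libraries overlapped those of *Klf10* in both KO groups but not in either WT group. Of the low members, *Klf4*, *Klf7* and *Klf2* overlapped each other in every group where they stood side by side. *Klf5* came last in all 4 groups, separate from the gene above it in all but KO after running.

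**Figure D1:**
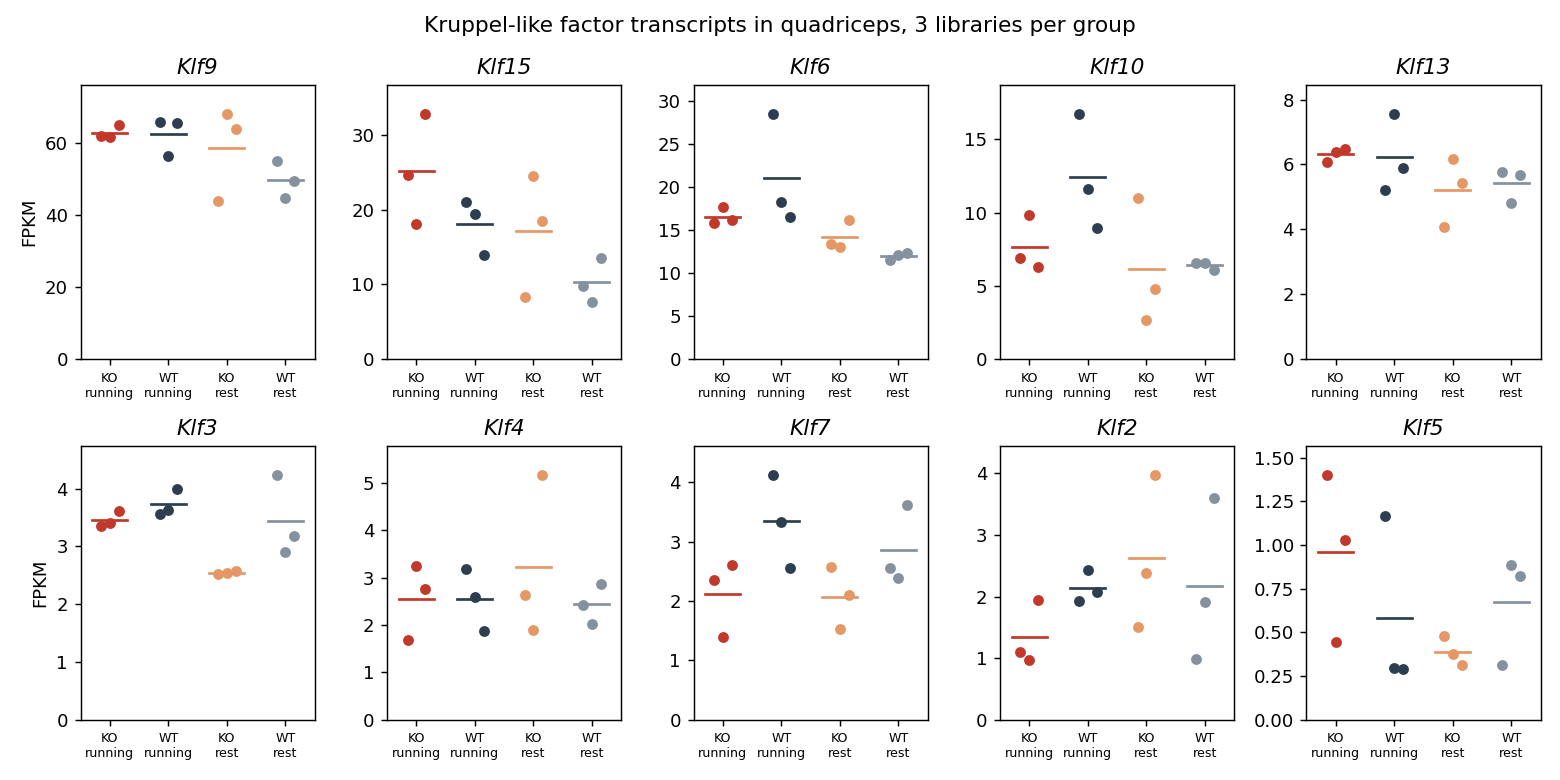
FPKM of each Kruppel-like factor in KO and WT libraries after running and at rest, with 1 panel per gene and its own axis starting at 0. Points are single libraries and bars are group means of 3; *Klf9* lies between 43.9 and 67.9 FPKM, and *Klf5* never exceeds 1.40 FPKM.

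The first comparison asked whether loss of HDAC3 altered these transcripts after running or at rest. No Kruppel-like factor passed limma in either condition. After running, 0 of the 9 members tested were called at an adjusted p of 0.05 or under, where 3.73% of all 9037 genes tested were called. At rest, 0 of 9 were called, where 4.72% of all 9204 genes were. *Klf5* was not tested in either table, being too low for the authors' own test. These backgrounds themselves moved with single libraries: the 337 genes called after running became 70 to 103, and the 434 called at rest became 20 to 292, when any 1 library was left out. At an unadjusted p under 0.05 the members numbered 1 after running (*Klf10*), against 19.9% of all genes, and 0 at rest, against 21.5%.

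The authors' deposited table called 1 of the 9 members after running, *Klf10* (q = 0.00343), where 9.57% of all genes passed the same threshold of 0.05. At rest the authors' deposited table called 1 of 9, *Klf15* (q = 0.00119), where 10.8% of all genes passed. By library values, 0 of 10 members separated KO from WT after running, where 26.1% of all genes did. At rest 2 of 10 separated, *Klf6* with all KO libraries above WT and *Klf3* with all KO libraries below WT, where 28.0% of all genes separated (15.6% with KO above WT and 12.4% with KO below). Neither share of separated members exceeded its background, and 1 call of 9 lay close to the background of the authors' deposited table in each condition. The median log2 difference of the members was -0.08 after running and 0.22 at rest, beside -0.001 and 0.01 over all genes tested. The 95% interval of the difference lay within 2-fold in either direction, on the log2(FPKM + 1) scale, for 8 of 9 members after running and 6 of 9 at rest. The remaining intervals, those of *Klf10* after running and of *Klf15*, *Klf10* and *Klf2* at rest, reached beyond 2-fold. These counts depended on the added 1 FPKM: with 0.1 FPKM added they were 5 of 9 after running, where the intervals of *Klf2*, *Klf7* and *Klf15* also passed 2-fold, and 4 of 9 at rest, where those of *Klf4* and *Klf7* did.

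**Figure D2:**
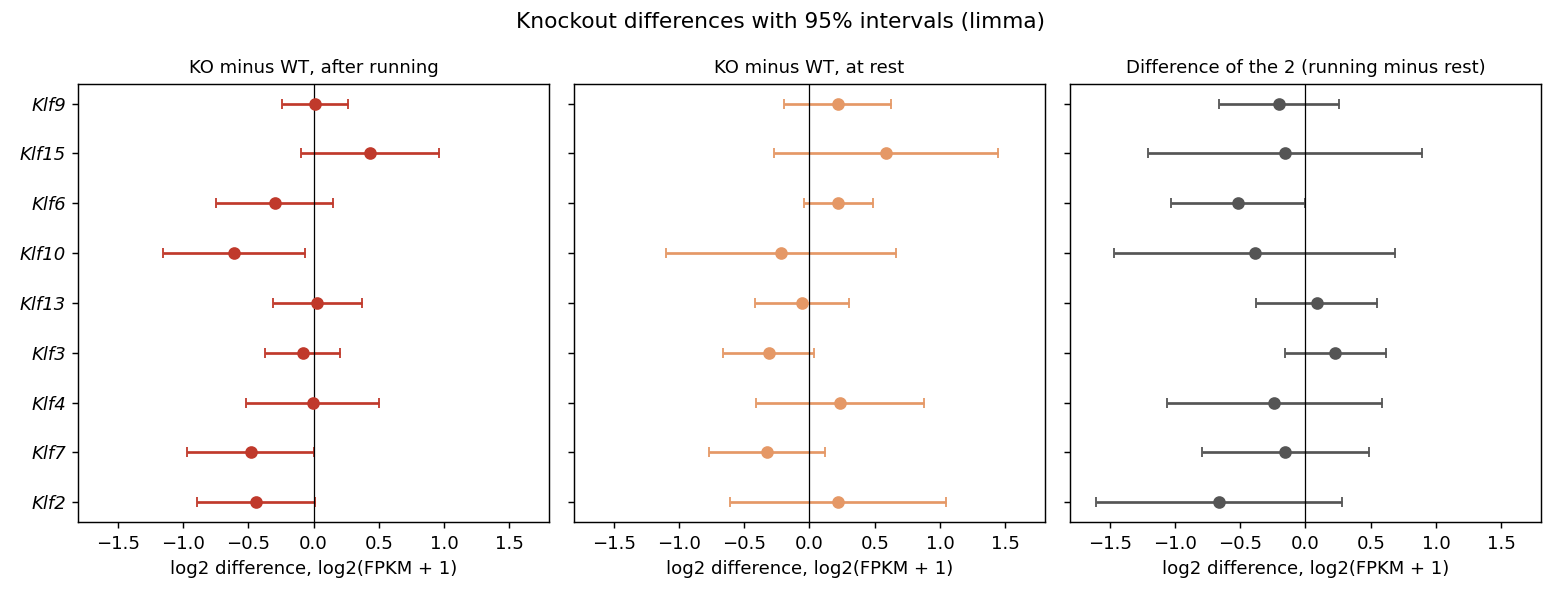
Difference on the log2(FPKM + 1) scale with its 95% interval from limma for the 9 members tested: KO minus WT after running, KO minus WT at rest, and the difference of these (running minus rest). Of the 9 intervals in each panel only those of *Klf10* after running and of *Klf6* in the last panel exclude 0, and neither passed adjustment over all genes.

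*Klf15*, the glucocorticoid-induced regulator of muscle fuel use, had the largest positive difference of the 9 in both conditions, and its libraries spread widely. After running it had 24.7, 18.1 and 32.8 FPKM in KO libraries 1 to 3, against 21.0, 19.4 and 14.0 FPKM in WT. KO libraries 1 and 3 lay above all WT libraries, and KO library 2 lay among them. At rest it had 8.33, 24.6 and 18.6 FPKM in KO, against 9.77, 7.72 and 13.6 FPKM in WT. Here KO libraries 2 and 3 lay above all WT libraries and KO library 1 fell within the WT range. The limma difference was 0.43 ± 0.23 (SE) after running (95% interval -0.10 to 0.96, adjusted p = 0.339) and 0.59 ± 0.37 at rest (-0.27 to 1.45, adjusted p = 0.404). The authors' deposited table gave q = 0.0647 after running for this gene, beside the 0.00119 at rest, and its p at rest was 5e-05, the smallest in that table.

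The resting value of *Klf15* moved with single libraries. Without KO library 1 the difference at rest was 1.01 (adjusted p = 0.098), the lowest adjusted p of any member under any setting tried, and without KO library 2 it was 0.28 (adjusted p = 0.712). The same KO library 1 was low in some other glucocorticoid-induced transcripts, though not in all. *Fkbp5*, a chaperone of the glucocorticoid receptor, had 7.47 FPKM there against 24.6 and 15.3 FPKM in KO libraries 2 and 3. *Per1*, a clock gene, had 1.52 FPKM against 5.86 and 7.37. The summed level of 10 genes of the glucocorticoid receptor list was 307.0 FPKM in that library, and 544.7 and 520.8 FPKM in the other KO libraries at rest. In resting WT libraries 1 to 3, *Fkbp5* had 17.1, 8.02 and 8.18 FPKM and *Per1* had 3.68, 2.41 and 5.13 FPKM. The WT sums were 401.4, 390.0 and 424.9 FPKM. KO library 1 lay below every resting WT library in *Fkbp5*, *Per1* and the sum, though close to WT libraries 2 and 3 for *Fkbp5*. It also lay below them for *Tsc22d3*, *Sgk1*, *Zbtb16* and *Mt1* of the list, but within the WT range for *Nr3c1* and *Errfi1*. For *Mt2*, at 7.04 FPKM, and *Ddit4*, at 2.62 FPKM, it lay above every resting WT library. The highest of these WT values were 5.46 and 2.59 FPKM. In the sum, KO libraries 2 and 3 lay above every resting WT library. The part of these levels in the *Klf15* result was not tested. After running, the difference without KO library 3 was 0.23. That library held 312.4 FPKM of the 6 neutrophil markers, against 2.35 and 3.78 FPKM in the other KO libraries after running and 1.37 to 13.2 FPKM in WT after running. At rest the markers summed to 3.49 to 7.55 FPKM in KO and to 5.01, 465.6 and 9.94 FPKM in WT libraries 1 to 3, and WT library 2 had the lowest *Klf15* level of the 12. Without that library the resting difference was 0.41. The part of neutrophil RNA in the *Klf15* level was not tested.

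Of the glucocorticoid receptor list, 10 genes were tested in each condition and 0 passed limma in either. The median log2 difference of the list was 0.08 after running and 0.24 at rest. Its most abundant members were *Tsc22d3*, the glucocorticoid-induced leucine zipper gene, at 327 ± 109 FPKM in KO and 308 ± 19.5 FPKM in WT after running, and the kinase gene *Sgk1*, at 230.5 ± 54.6 and 210.2 ± 34.8 FPKM (SD, n = 3). The authors' deposited table called *Mt1* and *Mt2* after running and *Fkbp5* and *Ddit4* at rest. Of 15 tested genes for amino acid, fatty acid and protein breakdown that are linked to KLF15, 0 passed after running and 1 rose in KO at rest. That gene was *Hadha*, of mitochondrial fatty acid oxidation, at 139.1 ± 5.84 FPKM in KO and 98.3 ± 10.1 FPKM in WT (0.50, adjusted p = 0.0448). Its call was lost when any 1 of the 6 resting libraries was left out, with adjusted p from 0.0503 to 0.160. The median of the metabolic list was 0.12 after running and 0.29 at rest. The authors' deposited table called *Fabp3*, *Acsl1* and *Fbxo32* after running and *Acsl1*, *Hadha* and *Trim63* at rest.

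*Klf9*, another glucocorticoid-induced member, lay within the WT range after running and was uneven in KO muscle at rest. It had 62.0, 61.7 and 65.0 FPKM in KO after running, inside the range of 65.7, 56.4 and 65.5 FPKM in WT. At rest the KO libraries had 43.9, 67.9 and 63.8 FPKM, against 54.9, 44.7 and 49.3 FPKM in WT. As for *Klf15*, KO library 1 was the low one and KO libraries 2 and 3 were above every WT library. Unlike *Klf15*, *Klf9* in KO library 1 lay below every WT library. The difference was 0.01 ± 0.11 after running (95% interval -0.24 to 0.26) and 0.22 ± 0.18 at rest (-0.19 to 0.62). The first took a negative sign without KO library 3 (-0.01) or WT library 2 (-0.06). The difference at rest was 0.41 without KO library 1, 0.10 without KO library 2, 0.14 without KO library 3 and 0.14 without WT library 2.

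*Klf10*, the TGF-beta early gene, had the largest negative difference after running. It had 6.89, 9.84 and 6.30 FPKM in KO, against 16.7, 11.6 and 8.92 FPKM in WT. The groups overlapped only because KO library 2 exceeded WT library 3. The difference was -0.61 ± 0.24 (95% interval -1.15 to -0.06, unadjusted p = 0.0327, adjusted p = 0.206), and without WT library 1, the highest, it was -0.39. At rest *Klf10* had 11.0, 2.69 and 4.81 FPKM in KO, against 6.54, 6.59 and 6.08 FPKM in WT. KO library 1 was above all WT libraries and KO libraries 2 and 3 were below them, so the group means of 6.17 ± 4.33 and 6.40 ± 0.282 FPKM were close while the KO spread was wide. The resting difference was -0.22 ± 0.38 (-1.10 to 0.66, adjusted p = 0.789), and it was -0.68 without KO library 1 and 0.18 without KO library 2.

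*Klf6*, a widely expressed factor induced early after tissue injury, averaged lower in KO than in WT after running and higher at rest, and neither difference passed. After running it had 15.8, 17.6 and 16.2 FPKM in KO, against 28.4, 18.3 and 16.5 FPKM in WT. At rest it had 13.4, 13.0 and 16.1 FPKM in KO, all above the 11.5, 12.1 and 12.3 FPKM of WT. The difference was -0.30 ± 0.19 after running (95% interval -0.74 to 0.15, adjusted p = 0.438) and 0.22 ± 0.11 at rest (-0.04 to 0.49, adjusted p = 0.308). Without WT library 1, the highest, the value after running was -0.07, and without KO library 3, the highest, the resting value was 0.13.

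*Klf13*, a close relative of *Klf9*, had 6.07, 6.37 and 6.48 FPKM in KO after running, against 5.23, 7.54 and 5.89 FPKM in WT. Resting levels were 4.08, 6.18 and 5.41 FPKM in KO and 5.78, 4.82 and 5.66 FPKM in WT. The groups overlapped in both conditions, with differences of 0.03 ± 0.15 and -0.06 ± 0.16. The sign turned without WT library 1 after running (-0.07) and without KO library 1 at rest (0.08).

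Of 11 tested genes of the TGF-beta early response list, 0 passed limma in either condition, with list medians of -0.08 after running and 0.06 at rest. Its most abundant genes were the signal transducers *Smad3* and *Smad4*. Of the 12 corepressors, coactivators and other partners of these factors, 0 passed after running and 2 at rest. *Kat2b*, an acetyltransferase gene, rose in KO at rest to 71.7 ± 3.14 FPKM against 46.0 ± 5.20 FPKM in WT (0.64, adjusted p = 0.023). *Ep300*, the gene of the acetyltransferase p300, fell in KO at rest to 4.34 ± 0.142 FPKM against 6.75 ± 0.511 FPKM in WT (-0.54, adjusted p = 0.0377). Leaving out single libraries ended the *Ep300* call in all 6 cases and the *Kat2b* call in 5 of 6, with adjusted p up to 0.163 and 0.106. The medians of that list were -0.16 after running and -0.07 at rest, and the authors' deposited table called *Hdac2* after running and *Ep300* and *Kat2b* at rest.

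*Klf2* and *Klf4* are best known from endothelium, where shear stress induces them through MEK5, ERK5 and MEF2 factors, and both are also expressed in macrophages. *Klf2* after running had 1.10, 0.978 and 1.94 FPKM in KO, against 1.92, 2.43 and 2.07 FPKM in WT. KO libraries 1 and 2 were below all WT libraries, and KO library 3 just passed WT library 1. At rest *Klf2* had 1.501, 2.38 and 3.97 FPKM in KO and 0.992, 1.91 and 3.59 FPKM in WT, a wide and overlapping spread. The difference was -0.44 ± 0.20 after running (95% interval -0.89 to 0.01, unadjusted p = 0.0535, adjusted p = 0.261) and 0.22 ± 0.35 at rest (-0.61 to 1.05). The resting value turned to -0.07 without WT library 1 and to -0.04 without KO library 3. In bulk muscle, fewer cells of a type and less RNA per cell cannot be told apart.

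*Klf4* had 1.68, 3.24 and 2.75 FPKM in KO after running and 3.18, 2.59 and 1.87 FPKM in WT. At rest it had 2.63, 1.89 and 5.16 FPKM in KO and 2.41, 2.03 and 2.86 FPKM in WT. KO library 3 at rest was the highest of the 12, and without it the resting difference of 0.23 ± 0.28 turned to -0.08. After running the difference was -0.005 ± 0.22, and its sign turned without KO library 1 (0.19), WT library 1 (0.12) or WT library 2 (0.01).

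Beside these members, 0 of 10 endothelial markers passed limma in either condition, with medians of -0.16 and 0.004. Their summed level was 99.5 to 141.5 FPKM in KO after running, 122.1 to 150.7 in WT after running, 119.6 to 136.6 in KO at rest and 116.3 to 129.4 in WT at rest, with *Pecam1* and *Egfl7* the most abundant. Of the 9 macrophage markers found, 8 were tested and 2 rose in KO after running. *Cd68* had 4.26 ± 1.45 FPKM in KO and 0.888 ± 0.545 FPKM in WT (1.48, adjusted p = 0.0372), and the mannose receptor gene *Mrc1* had 7.10 ± 1.21 and 2.80 ± 0.200 FPKM (1.08, adjusted p = 0.0144). The *Cd68* call was lost in 4 of 6 leave-one-out fits (adjusted p up to 0.109) and the *Mrc1* call in 1, without WT library 2 (adjusted p = 0.0548). The summed macrophage level was 70.8 to 111.7 FPKM in KO after running against 38.0 to 59.6 in WT after running, and 49.9 to 83.6 in KO at rest against 74.3 to 79.3 in WT at rest. At rest 0 macrophage markers passed. The list medians were 0.64 after running and -0.20 at rest. The part of macrophage or endothelial RNA in the *Klf2* and *Klf4* values was not tested.

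Of 5 tested endothelial targets of KLF2 and KLF4, 0 passed in either condition, with medians of -0.27 after running and -0.02 at rest. *Cav1*, the caveolin gene, had 70.7 ± 13.0 FPKM in KO and 90.1 ± 13.7 FPKM in WT after running, and *S1pr1*, a sphingosine 1-phosphate receptor gene, had 16.5 ± 2.51 and 20.4 ± 2.82 FPKM. Neither passed. Of 6 tested genes of the MEK5, ERK5 and MEF2 input, led by *Mef2c* and *Mef2a*, 0 passed, with medians of 0.04 after running and -0.07 at rest. The authors' deposited table called *Mef2d* after running.

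*Klf3*, which represses through CtBP, had the tightest libraries of the family in KO at rest, 2.52, 2.55 and 2.58 FPKM, all below the 4.24, 2.91 and 3.19 FPKM of WT. After running it had 3.36, 3.41 and 3.61 FPKM in KO and 3.56, 3.63 and 3.99 FPKM in WT, overlapping only through KO library 3 and WT library 1. The difference was -0.08 ± 0.13 after running (95% interval -0.37 to 0.21) and -0.31 ± 0.15 at rest (-0.66 to 0.03, adjusted p = 0.278). Without WT library 1, the highest, the resting difference was -0.19.

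*Klf7*, a factor with roles in neurons and fat cells, was lower on average in KO in both conditions without passing the test. It had 2.36, 1.40 and 2.61 FPKM in KO after running, against 4.12, 3.34 and 2.56 FPKM in WT. Resting levels were 2.58, 1.53 and 2.10 FPKM in KO, against 2.55, 2.39 and 3.61 FPKM in WT. After running only KO library 3 reached the WT range. The differences were -0.48 ± 0.21 (95% interval -0.97 to 0.005, adjusted p = 0.255) and -0.33 ± 0.19 (-0.77 to 0.12, adjusted p = 0.375). The value after running was -0.30 without KO library 2, and the resting value was -0.19 without WT library 3 and -0.20 without KO library 2.

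*Klf5*, which takes part in muscle lipid metabolism with the nuclear receptor PPAR-delta, was the lowest member in every group. It had 1.40, 0.444 and 1.03 FPKM in KO and 1.16, 0.297 and 0.292 FPKM in WT after running. Resting levels were 0.478, 0.379 and 0.312 FPKM in KO and 0.315, 0.885 and 0.824 FPKM in WT. The groups overlapped in both conditions. Of 6 genes of the KLF5 lipid list, 0 passed limma in either condition, with medians of 0.41 after running and -0.01 at rest. *Ucp3*, the most abundant, had 133.5 ± 15.1 FPKM in KO and 119.0 ± 42.2 FPKM in WT after running, and 30.5 ± 8.45 and 46.9 ± 16.5 FPKM at rest. The authors' deposited table called *Ucp3* at rest.

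Of the 16 other KLF and SP genes found, 4 (*Klf12*, *Sp1*, *Sp3* and *Sp4*) were high enough to be tested, and 0 passed limma in either condition. *Sp3* was the most abundant, at 12.6 ± 0.244 FPKM in KO and 14.1 ± 0.846 FPKM in WT after running, followed by *Sp1* at 5.72 ± 0.604 and 6.46 ± 0.320 FPKM. *Klf12* had 1.79, 2.92 and 1.90 FPKM in KO and 4.10, 3.17 and 3.44 FPKM in WT after running, with no overlap (-0.52, adjusted p = 0.160). It was the list's only call in the authors' deposited table, after running (q = 0.0114). *Klf17*, *Sp5* and *Sp9* were listed at 0 in all 12 libraries. List medians were -0.15 after running and 0.05 at rest. Among the remaining cell type lists, limma called 0 of 2 tested neutrophil markers, 0 of 7 fibroblast, 0 of 5 smooth muscle and 0 of 3 adipocyte markers in either condition, and 0 of 1 satellite cell markers after running and 0 of 2 at rest. The authors' deposited table called the neutrophil genes *S100a8* and *S100a9* in both conditions and the collagen genes *Col1a1* and *Col1a2* at rest. The 6 smooth muscle and pericyte markers summed to 160.0 to 187.5 FPKM in KO and 219.9 to 233.7 FPKM in WT after running, with no overlap, and to 203.1 to 216.8 FPKM in KO and 173.7 to 241.5 FPKM in WT at rest. *Rgs5* made up most of these sums, at 134.4 ± 13.8 FPKM in KO and 179.4 ± 6.92 FPKM in WT after running. It was the only marker of the 6 whose libraries separated KO from WT after running, where 26.1% of all genes did. The part of these markers in the member levels was not tested.

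The second comparison asked whether the effect of HDAC3 loss on each factor differed between running and rest, as (KO minus WT after running) minus (KO minus WT at rest) over the 12 libraries. No member passed: 0 of 9 were called, against 0.0% of the 8854 genes tested in both tables. At an unadjusted p under 0.05 there was 1 member, *Klf6*, against 4.89% of all genes. Its difference of effects was -0.52 ± 0.24 (95% interval -1.03 to -0.003, unadjusted p = 0.049, adjusted p = 0.923), from -0.30 after running and 0.22 at rest, and it was -0.29 without WT library 1 after running. *Klf2* had an estimate of -0.66 ± 0.43 (-1.60 to 0.28), which was -0.37 without WT library 1 at rest and -0.41 without KO library 3 at rest. For *Klf15* it was -0.16 ± 0.48 (-1.21 to 0.89), and its sign turned without KO library 2 after running (0.05), KO library 2 at rest (0.15) or WT library 2 at rest (0.02). *Klf10* had -0.39 ± 0.49 (-1.46 to 0.68), and 0.07 without KO library 1 at rest. Of the 9 intervals 4 lay within 2-fold in either direction, and the others reached beyond it; with 0.1 FPKM added, 3 lay within it.

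Running was set against rest within each genotype without a test, because the libraries after running and at rest stood in tables from separate runs of the authors' software. In KO muscle 1 of the 10 members, *Klf3*, had every library after running above every library at rest, where 5.87% of all genes did so. In WT muscle 4 of 10 did, namely *Klf6*, *Klf9*, *Klf10* and *Klf15*, where 7.54% of all genes did. With all libraries, no member separated in the other direction in either genotype, where 10.0% of genes in KO and 8.19% in WT did. By group means, 0 of the 9 members tested were at least 1.5 times higher after running in KO, where 3.42% of genes were, and 3 of 9 were in WT, where 3.28% of genes were. Both counts moved with single libraries. The ratio of *Klf15* in KO, 1.47 with all libraries, was 1.68 without KO library 2 after running. It was 1.87 without KO library 2 at rest and 1.53 without KO library 3 at rest. The ratio of *Klf10* in KO was 2.05 without KO library 1 at rest. In WT the ratio of *Klf6*, 1.76 with all libraries, was 1.45 without WT library 1 after running. The lowest WT ratios with a library left out were 1.60 for *Klf10* and 1.55 for *Klf15*. The median ratio of all genes between the tables was close to even, at -0.02 on the log2 scale in KO and -0.001 in WT.

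*Klf10* in KO averaged 7.68 ± 1.90 FPKM after running and 6.17 ± 4.33 at rest, a ratio of 1.24, and in WT 12.4 ± 3.96 and 6.40 ± 0.282 FPKM, a ratio of 1.94. *Klf6* in KO averaged 16.5 ± 0.968 FPKM after running and 14.2 ± 1.71 at rest (ratio 1.17), and in WT 21.1 ± 6.45 and 11.95 ± 0.401 FPKM (ratio 1.76). Both reached their highest values of the 12 libraries in WT library 1 after running. *Klf15* in KO averaged 25.2 ± 7.39 FPKM after running and 17.2 ± 8.23 at rest (ratio 1.47), and in WT 18.1 ± 3.67 and 10.4 ± 2.99 FPKM (ratio 1.750). *Klf9* in KO averaged 62.9 ± 1.82 FPKM after running and 58.6 ± 12.8 at rest (ratio 1.07), and in WT 62.6 ± 5.34 and 49.6 ± 5.09 FPKM (ratio 1.26). The resting WT libraries thus held the lowest mean of *Klf6*, *Klf9* and *Klf15* among the 4 groups. Without WT library 1 after running the WT ratios were 1.60 for *Klf10*, 1.45 for *Klf6*, 1.61 for *Klf15* and 1.23 for *Klf9*.

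*Klf3* in KO averaged 3.46 ± 0.135 FPKM after running and 2.55 ± 0.0309 at rest (ratio 1.36), and in WT 3.73 ± 0.234 and 3.44 ± 0.699 FPKM (ratio 1.08). *Klf2* had the lowest ratio of the members in KO, 0.512, and 0.988 in WT, and its libraries overlapped in both genotypes. The highest KO ratio, 2.46, was that of *Klf5*, which was not tested and so is left out of the counts by group means. It came from means of only 0.958 FPKM after running and 0.390 at rest. The ratio of *Klf5* in WT was 0.866, and its libraries overlapped in both genotypes. With single libraries left out, 2 to 4 members separated running from rest in KO, *Klf3* always among them, and 4 to 6 in WT, *Klf6*, *Klf9*, *Klf10* and *Klf15* always among them. These counts hold both directions: *Klf2* in KO lay lower after running without KO library 3 after running or KO library 1 at rest, and *Klf5* in WT did without WT library 1 after running. With fewer libraries the share of all genes that separated in either direction was also larger, 23.8% to 30.2% in KO and 21.1% to 30.1% in WT, against 15.9% and 15.7% with all libraries. Summed levels of the glucocorticoid receptor list were 935.7 to 1188 FPKM after running and 307.0 to 544.7 FPKM at rest in KO, and 703.8 to 952 FPKM after running and 390.0 to 424.9 FPKM at rest in WT. The part of that list in the *Klf9* and *Klf15* levels was not tested.

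**Figure D3:**
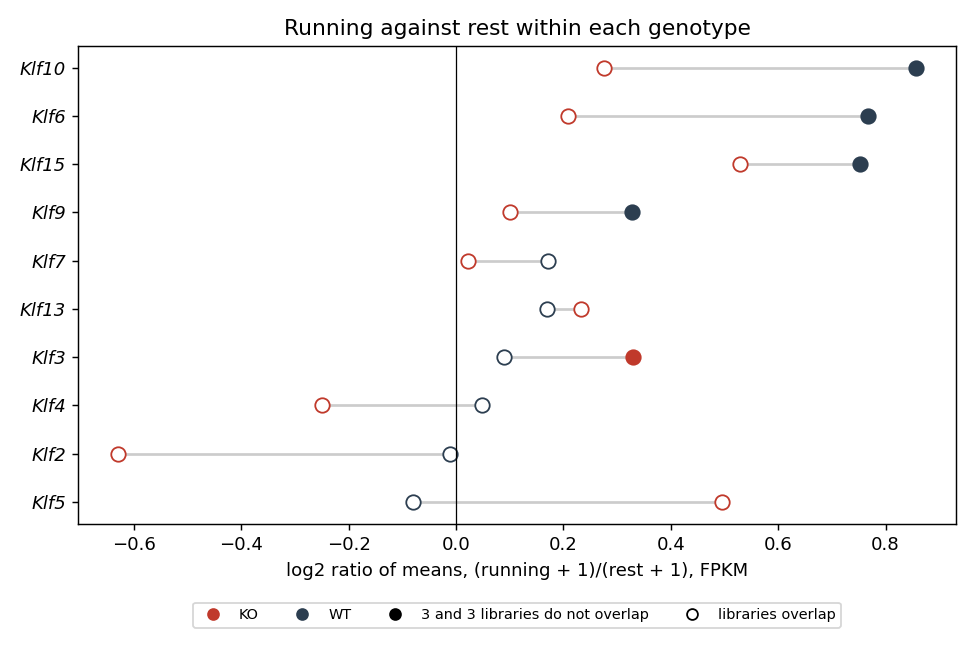
Log2 ratio of group means, (running + 1)/(rest + 1) in FPKM, for the 10 members in KO and WT. Filled points mark members whose 3 libraries after running and 3 at rest do not overlap: *Klf3* in KO, at 0.33, and *Klf10*, *Klf6*, *Klf15* and *Klf9* in WT, at 0.86, 0.77, 0.75 and 0.33.

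Promoter sequences are shown for *Klf15*, *Klf6* and *Klf9*, the members separated by running in WT for which RefSeq gave a promoter, to let their motif content be compared. RefSeq promoters on GRCm38.p6 were matched for 8 of the 10 members, and not for *Klf5* and *Klf10*. Each run covers 250 bases before the annotated start and 5 bases from it, written in the direction of transcription, with the E-box CACGTG in capitals. The *Klf15* run lies at chr6:90462326-90462580 on the plus strand, that of *Klf6* at chr13:5861239-5861493 on the plus strand, and that of *Klf9* at chr19:23140976-23141230 on the plus strand.
Klf15: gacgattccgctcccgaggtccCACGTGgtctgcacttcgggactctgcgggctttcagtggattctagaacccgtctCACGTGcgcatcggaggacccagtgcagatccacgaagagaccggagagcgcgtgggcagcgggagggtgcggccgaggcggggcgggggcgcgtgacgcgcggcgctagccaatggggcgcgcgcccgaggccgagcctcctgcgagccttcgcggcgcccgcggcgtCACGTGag
Klf6: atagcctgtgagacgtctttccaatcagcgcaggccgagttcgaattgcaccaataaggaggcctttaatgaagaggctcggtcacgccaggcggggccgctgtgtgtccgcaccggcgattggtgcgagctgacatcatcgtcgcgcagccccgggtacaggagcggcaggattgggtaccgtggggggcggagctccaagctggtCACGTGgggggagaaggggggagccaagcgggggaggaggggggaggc
Klf9: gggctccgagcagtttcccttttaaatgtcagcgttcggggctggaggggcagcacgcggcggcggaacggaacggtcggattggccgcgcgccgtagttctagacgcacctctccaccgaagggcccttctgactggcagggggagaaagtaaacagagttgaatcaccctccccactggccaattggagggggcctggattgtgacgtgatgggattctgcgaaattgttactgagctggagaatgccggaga

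The palindromic E-box CACGTG, the element bound by CLOCK and BMAL1 and by other basic helix-loop-helix proteins, occurred 3 times in the *Klf15* run. Its first bases lay at -228, -172 and -3, counted with the start base as 0, so the last copy spans the start. *Klf6* held 1 copy at -43, *Klf4* held 1 at -182, and *Klf9*, *Klf2*, *Klf3*, *Klf7* and *Klf13* held none. Over the 32851 RefSeq promoter windows of 300 bases, 7.2% held at least 1 copy. Windows with 3 or more copies made up 0.0883% (29), a count chosen after the *Klf15* value was seen. Both strands were searched for 3 further motifs. The CACCC box CACCC was found in 6 of the 8 member windows against 57.5% of all windows, the GC box GGGCGG in 7 of 8 against 35.7%, and TGACG, the core of the cyclic AMP response element (CRE), in 6 of 8 against 20.8%. *Klf9* had a CACCC box at -84 and a CRE core at -46. Matches of different motifs overlapped in 3 places: the last E-box of *Klf15* with a CRE core, and a CACCC box with a GC box in both *Klf13* and *Klf3*. Within 1 motif, the GC boxes of *Klf4* at -217 and -212 shared a base. A match describes the letters only, and none of these windows was measured for binding.

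**Figure D4:**
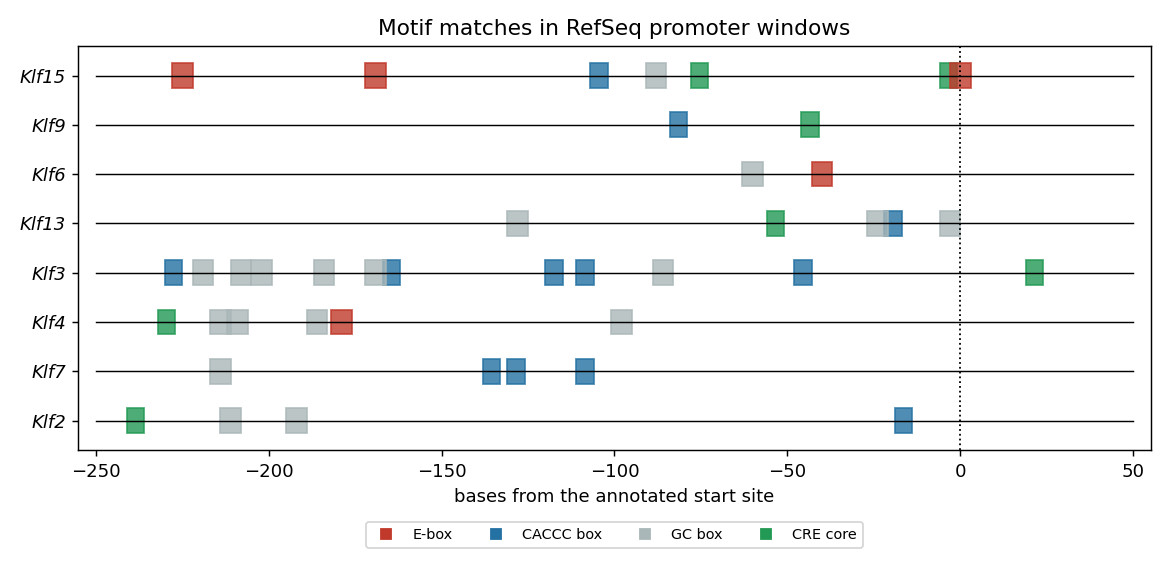
Positions of E-box, CACCC box, GC box and CRE core matches on either strand, in bases from the annotated start, in the 8 RefSeq promoter windows of the members. *Klf15* has the only 3 E-boxes in 1 window, at -228, -172 and -3.

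Across libraries the members did not vary as a block. After each table was centred on its own mean, *Klf9* and *Klf15* varied together over the 12 libraries (Pearson r = 0.74), and *Klf10* varied against both, with r = -0.72 to *Klf15* and -0.65 to *Klf9*. *Klf10* and *Klf13* had r = -0.62. Without KO libraries 1 and 2 at rest these were 0.53 for *Klf9* and *Klf15*, -0.48 for *Klf10* and *Klf15*, -0.24 for *Klf10* and *Klf9* and -0.28 for *Klf10* and *Klf13*. The libraries share a table and a genotype, and the values are a description with no p. In KO library 1 at rest *Klf10* was high at 11.0 FPKM while *Klf15* and *Klf9* were low at 8.33 and 43.9 FPKM. In KO library 2 at rest *Klf10* was low at 2.69 FPKM while *Klf15* and *Klf9* were high at 24.6 and 67.9 FPKM.

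**Figure D5:**
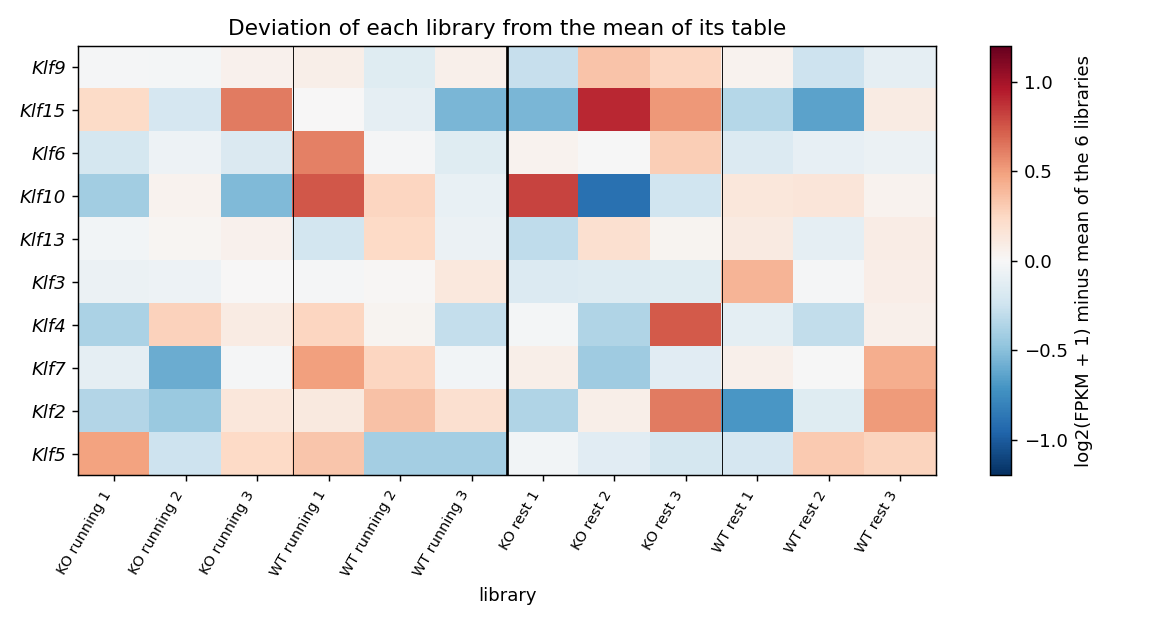
Deviation of log2(FPKM + 1) in each library from the mean of the 6 libraries of its table, for the 10 members (red above, blue below). KO libraries 1 and 2 at rest show *Klf10* opposite to *Klf15* and *Klf9*, and WT library 1 after running is high in *Klf6*, *Klf10* and *Klf7*.

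Among the 8853 other genes tested in both tables, the 3 of highest r were named for each member with a mean of at least 1 FPKM. For *Klf15* they were the phosphate transporter gene *Slc20a2* (r = 0.95), *Cebpb* (0.945), which encodes a stress-responsive transcription factor, and *Foxo3* (0.92), which encodes a regulator of muscle protein breakdown. *Cebpb* had 27.5, 14.1 and 26.1 FPKM in KO and 16.5, 16.7 and 9.31 FPKM in WT after running, and 8.12, 19.9 and 16.1 FPKM in KO and 9.75, 6.30 and 12.8 FPKM in WT at rest. Like *Klf15*, it was low in KO library 1 at rest and high in KO libraries 1 and 3 after running. Without KO library 1 at rest the r of these genes was 0.91 to 0.94. For *Klf9* they were *Tiparp* (0.92), *Arrdc2* (0.91) and *Tob2* (0.87). *Arrdc2* had 1.24 FPKM in KO library 1 at rest and 60.5 FPKM in KO library 2 at rest, a wider swing than the 43.9 and 67.9 FPKM of *Klf9*.

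For *Klf6* they were *Tnni1* (0.91), the slow troponin I gene, *Maff* (0.90), a small MAF factor gene, and *Otud1* (0.89), a deubiquitinase gene. All of them peaked in WT library 1 after running, where *Otud1* had 174.8 FPKM and *Maff* 8.19 FPKM. Without that library their r to *Klf6* was 0.79, 0.69 and 0.63. For *Klf10* they were *Stx2* (0.93), *Ift20* (0.89) and *Nab1* (0.88). For *Klf3* they were *Thap11* (0.95), *Plscr4* (0.92) and *Cep68* (0.87), and *Klf7* had *Tex264* (0.91) and *Sec61b* (0.89) among its 3. For *Klf2* they were *Maea* (0.93), *Polrmt* (0.92) and *Dok7* (0.91), for *Klf4* *Vps25* (0.88), *Sin3b* (0.81) and *Tatdn3* (0.80), and for *Klf13* *Hlf* (0.87), *Tmem42* (0.87) and *Cpox* (0.85). Each r was the highest of many over only 12 libraries and is given as a description.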

How the data were processed

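RNA-seq of quadriceps gave 12 libraries, 3 per genotype and condition; its 4 GRO-seq samples are not analysed here. Per the submitters' processing notes, TopHat2, Bowtie, Cuffdiff and HOMER were used with mm9; versions, annotation, strandedness and settings are not given in the sources used here. The authors deposited FPKM per library in 1 table for running and 1 for rest (24354 rows each; 27 rows of the running table with damaged or repeated names were left out), with their own p-values and q-values, credited as the authors' deposited table. No per-sample column was left unmatched, and the FPKM give no depth.

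The members and gene lists were chosen with earlier results of these data known. limma 3.58.1 in R 4.3.3 with a mean-variance trend was run on log2(FPKM + 1), which understates changes of low genes, over all genes the authors tested (9037 after running, 9204 at rest, 8854 in both), two-sided, with Benjamini-Hochberg adjustment and a threshold of 0.05. With 3 libraries a side, the smallest two-sided exact permutation p is 0.1, so that test was left aside. The fit was also run on simulated data, but no outcome is given here, so that run is not used as evidence. Within-group correlations were 0.969 to 0.985, and at most 1 of 8946 genes had the same value in any pair of libraries, so each library was counted once. Named genes were the 10 members, *Hdac3* and the 3 genes most like each member. Called list members were named too, or the most abundant members where fewer than 2 were called. Other list members named are mostly the authors' calls. Outside these rules, the rest of the glucocorticoid receptor list was named for KO library 1 at rest. So were *Sp4*, *Klf17*, *Sp5* and *Sp9* of the other KLF and SP genes. Some genes that these rules picked are not reported here. Alternatives were the pseudocount, filter, library scaling, variance model, a replicate block, a common fit of 12 libraries and leaving out each library; for running against rest, scaling and left-out libraries were added after seeing the data. Promoters came from RefSeq on GRCm38.p6, and no coordinates of that build were joined to mm9 data. Python 3.11.15 was used for the rest.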

Additional observations from a re-analysis of the deposited data

How the results depend on the processing

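Under every alternative run, 0 members were called in each of the 3 contrasts. Of 396 member differences recomputed, 377 kept their direction and side of the threshold and 19 changed sign, all with 1 library left out. With 1 library left out, differences after running ranged from -0.149 to 0.186 for *Klf4*, -0.061 to 0.048 for *Klf9* and -0.07 to 0.158 for *Klf13*. At rest they ranged from -0.072 to 0.531 for *Klf2*, -0.076 to 0.471 for *Klf4*, -0.677 to 0.175 for *Klf10* and -0.166 to 0.082 for *Klf13*. The difference of effects ranged from -0.476 to 0.071 for *Klf4*, -0.291 to 0.025 for *Klf7*, -0.783 to 0.069 for *Klf10*, -0.052 to 0.214 for *Klf13* and -0.578 to 0.15 for *Klf15*.

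Over all genes, 337 were called after running and 434 at rest. With no filter on low values, which adds genes to the adjustment, these were 109 and 247. With the replicate block they were 170 and 52, and in a common fit of 12 libraries 592 and 678. Leaving out 1 library gave 70 to 103 after running and 20 to 292 at rest. The difference of effects called 0 genes, and 0 to 1 with 1 library left out; the cause of these shifts was not tested. Deviations of same-numbered KO and WT libraries correlated at 0.217, -0.236 and -0.222 after running and 0.082, -0.126 and 0.169 at rest. Libraries with different numbers had -0.181 to 0.4 after running and -0.178 to 0.123 at rest, so the ranges overlapped. With 3 libraries per group these values cannot show whether the replicate numbers paired the samples. Members that separated running from rest numbered 1 in KO (2 to 4 with 1 library left out) and 4 in WT (4 to 6 with 1 left out). Of 117 other named differences recomputed, 72 kept their call and 45 lost it with the direction kept; *Hdac3* passed in all. FPKM without counts, and 3 libraries per group, limit how small a difference could be detected.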
